A study of Epinephelus fuscoguttatus x Epinephelus lanceolatus with 9 samples.

Results

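Brush border hydrolases are enzymes that sit on the apical membrane of absorptive enterocytes and finish the breakdown of sugars and peptides in the gut lumen. The 5 described here are si, mep1a.1, mep1a.2, mep1bb and dpp4. They were taken by exact symbol from the deposited gene counts of pearl gentian grouper intestine, a table of 22344 genes, and all 5 listed symbols were present. All 5 also passed the filter on low counts that left 17731 genes for testing. The pearl gentian grouper is bred by crossing Epinephelus fuscoguttatus with Epinephelus lanceolatus. The labels give 9 intestinal RNA libraries, 3 in each of the groups called Drug, SBM and FM. The series title names the herb Lithospermum erythrorhizon, which the labels do not tie to a dose, a duration or a base diet. In fish nutrition SBM and FM usually stand for soybean meal and fish meal; the labels use only the short forms. They give no age, no gut segment and no time of sampling. Whether each library is from its own fish is not stated either, so every p-value here is set against the spread among libraries, part of which may be technical.

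In mammals, sucrase-isomaltase, the product of si, splits sucrose and the short glucose chains that amylase leaves from starch. Meprins are zinc metalloproteases of the astacin family, built from alpha chains (mep1a genes) and beta chains (mep1b genes), and they cut peptides and some proteins at the cell surface and in the lumen. Dipeptidyl peptidase 4, the product of dpp4, takes dipeptides off the N-terminus of peptides that carry proline or alanine at the penultimate place, and in mammals it also inactivates incretin hormones and is found on T cells. In zebrafish, the anterior intestine is the main site of fat absorption, and lysosome-rich enterocytes further back take up whole protein. The genes were chosen as signs of proximal absorptive enterocytes.

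Depth was even, with 32.87 to 35.48 M counts per library. Each of the 5 genes had between 430 and 56514 counts in every library. FM replicate 3 stood apart by its liver transcripts: the hepatocyte list summed to 22233 CPM there and to between 13.02 and 689 CPM in the other 8 libraries, where CPM is the count scaled to the library's size with TMM factors and is not per gene length. Results that rest on this library are also given without it. The mep1a.1 and mep1a.2 genes are copies of one gene family, and how reads that match both were counted, or whether they were left out, is not stated.

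The disaccharidase gene si had the lowest mean level of the 5 in each of the 3 groups on the FPKM scale, which is per gene length. Its FPKM was 103, 114 and 144 in Drug replicates 1, 2 and 3, then 108, 30.6 and 127 in the SBM replicates, and 14.6, 8.72 and 32.6 in the FM replicates. All 3 Drug libraries and SBM replicates 1 and 3 lay above 100 FPKM, while SBM replicate 2 lay within the range of FM. By rank, si was gene number 511 to 755 of the table in Drug, 594 to 1848 in SBM and 1865 to 5221 in FM.

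Of the alpha chain meprin genes, mep1a.1 was the more abundant per length in all 9 libraries. The FPKM of mep1a.1 was 311, 307 and 341 in Drug, 296, 41.2 and 217 in SBM, and 67.6, 28.2 and 75.8 in FM. Drug and FM did not overlap, and SBM replicate 2 again lay within FM. The FPKM of mep1a.2 was 224, 273 and 309 in Drug, 222, 8.06 and 170 in SBM, and 31.97, 5.08 and 51.8 in FM. Of the 5 genes mep1a.2 spanned the widest range, 68.2-fold in CPM between its lowest library, FM replicate 2, and its highest, Drug replicate 3.

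The beta chain gene mep1bb had 185, 240 and 347 FPKM in Drug, 258, 12.9 and 188 FPKM in SBM, and 37.6, 12.3 and 47.2 FPKM in FM. Drug did not overlap FM, and SBM replicate 2 was close to FM replicate 2, the lowest library. A second beta chain gene of the table, mep1ba, was at 129 CPM in Drug replicate 2 and at 7.78 CPM or less in each of the other 8 libraries. Its Drug libraries also lay above its FM libraries, as in 16.6% of all genes tested, without passing (adjusted p = 0.0824 by edgeR). Replicate 2 was the lowest library of mep1ba within SBM and within FM.

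The peptidase gene dpp4 was the most abundant of the 5 per length in all 9 libraries and varied least. Its FPKM was 375, 440 and 549 in Drug, 474, 274 and 458 in SBM, and 320, 284 and 294 in FM. Over all libraries it spanned 2.16-fold in CPM, against 13.5-fold to 68.2-fold for the other 4 genes. Drug lay above FM, while SBM replicate 2 was the lowest library on the FPKM scale and lay inside the FM range in CPM.

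**Figure D1:**
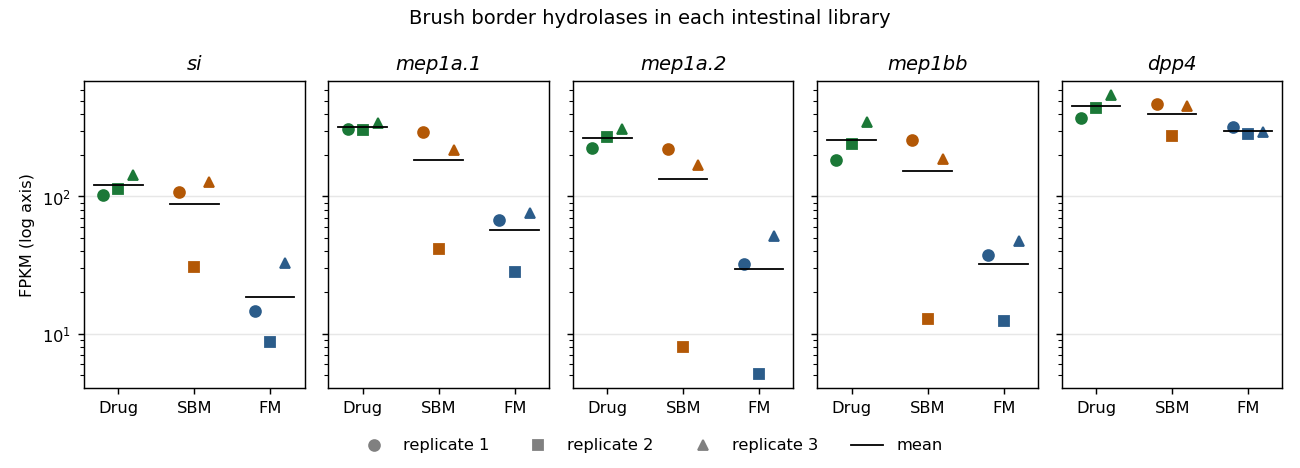
FPKM (log axis) of each of the 5 genes in each library, with Drug, SBM and FM from left to right, marker shapes for replicates 1 to 3 and a black line for the group mean. The 3 Drug libraries lie above the 3 FM libraries in every panel, and SBM replicate 2 lies far below SBM replicates 1 and 3 in all but the dpp4 panel, where the gap is smaller.

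Per length, the order of the group means in Drug was dpp4 (455 ± 87.5 FPKM), mep1a.1 (319 ± 18.6), mep1a.2 (269 ± 42.8), mep1bb (257 ± 82.5) and si (120 ± 21.5; SD, n = 3). The neighbours mep1a.2 and mep1bb did not differ beyond their spread there, nor did mep1a.1 and mep1a.2 by more than the sum of their SDs. In SBM the order was dpp4 (402 ± 111 FPKM), mep1a.1 (185 ± 130), mep1bb (153 ± 126), mep1a.2 (134 ± 112) and si (88.5 ± 50.97), and the last 4 overlapped widely. In FM the order was dpp4 (299 ± 18.8 FPKM), mep1a.1 (57.2 ± 25.5), mep1bb (32.4 ± 18.05), mep1a.2 (29.6 ± 23.5) and si (18.6 ± 12.5). Only dpp4 stood clear of its neighbour in FM, where the ranges of the other 4 over libraries overlapped. Library by library, mep1a.1 was second to dpp4 throughout SBM and FM, and in Drug replicates 1 and 2. Its FPKM was 1.61 to 2.29 times that of mep1bb within the FM libraries.

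Summed over the 5 genes, FPKM was 1199, 1372 and 1690 in Drug, 1360, 366 and 1159 in SBM, and 472, 338 and 502 in FM. The 5 genes thus held 0.403% to 0.559% of all counts in Drug, 0.124% to 0.450% in SBM and 0.107% to 0.164% in FM. The makeup of that sum differed too. dpp4 made up 31.3% to 32.5% of it in Drug, 34.9% to 74.7% in SBM and 58.6% to 84.0% in FM. The share of mep1a.2 was 18.3% to 19.9% in Drug, 2.2% to 16.3% in SBM and 1.5% to 10.3% in FM. In bulk tissue, fewer cells of a type and less RNA per cell cannot be told apart, for these sums and for each gene.

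**Figure D2:**
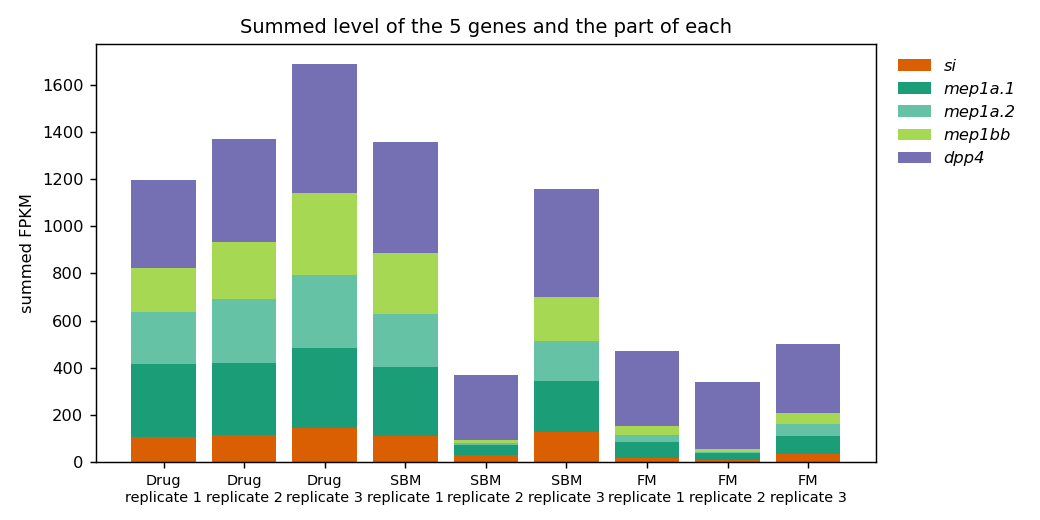
Summed FPKM of the 5 genes in each library as stacked bars, with the part of each gene in colour. The bars of the Drug libraries and of SBM replicates 1 and 3 reach 1159 to 1690 FPKM, those of SBM replicate 2 and of FM stay between 338 and 502 FPKM, and dpp4 makes up most of the low bars.

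Ratios within a library do not depend on how libraries are scaled. The FPKM ratio of si to dpp4 was 0.275, 0.258 and 0.263 in Drug, 0.228, 0.112 and 0.277 in SBM, and 0.0454, 0.0307 and 0.111 in FM. The ratio of mep1a.2 to dpp4 was 0.597, 0.621 and 0.564 in Drug, 0.468, 0.0294 and 0.372 in SBM, and 0.0998, 0.0179 and 0.176 in FM. In both ratios Drug was tight and lay above FM, and SBM replicate 2 was the lowest of its group. Of all pairs among the 5 genes, mep1a.2 to mep1bb varied least, from 0.413 to 1.21 over the 9 libraries. The alpha chain copies did not keep a fixed proportion, since mep1a.1 to mep1a.2 was 1.1 to 1.39 in Drug, 1.27 to 5.11 in SBM and 1.46 to 5.55 in FM. It was highest in SBM replicate 2 and FM replicate 2, the libraries with the lowest levels of both.

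The comparison of Drug with FM gave the largest differences. The gene si averaged 822 ± 152 CPM in Drug and 125 ± 91.6 CPM in FM (SD, n = 3), a 6.58-fold difference (log2 fold change 2.72, SE 0.66, 95% interval 2.30-fold to 18.8-fold, adjusted p = 0.0572 by edgeR's quasi-likelihood test with Benjamini-Hochberg adjustment over all genes). For mep1a.1 the means were 1164 ± 78.6 CPM in Drug and 202 ± 98.4 CPM in FM, 5.76-fold (1.87-fold to 17.7-fold, adjusted p = 0.0821 by edgeR). The largest fold was that of mep1a.2, 9.21-fold, at 665 ± 108 CPM in Drug and 72.3 ± 60.1 CPM in FM, but with the widest interval, 1.25-fold to 67.9-fold (adjusted p = 0.171 by edgeR). The gene mep1bb averaged 674 ± 221 CPM in Drug and 82.6 ± 49.6 CPM in FM, 8.16-fold, and dpp4 averaged 1363 ± 270.0 CPM in Drug and 857 ± 76.6 CPM in FM, 1.59-fold (adjusted p = 0.133 and 0.141 by edgeR).

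None of the 5 passed an adjusted p of 0.05 in Drug against FM with edgeR, while 4.38% of all genes tested passed. All 5 had an unadjusted p under 0.05 with a higher level in Drug, against 12% of all genes tested, and all 5 had groups that did not overlap in this direction, against 16.6%. DESeq2 called 4 of the 5 (all but dpp4), and 2455 genes among all tested. By limma on log2(FPKM + 1) si was called. Without SBM replicate 2, which enters the fit through the shared estimate of spread, si, mep1a.1, mep1bb and dpp4 passed, and without FM replicate 3 si alone passed (adjusted p = 0.0371, with a range of 9.17e-05 to 0.148 for this gene over all alternatives). In the fit without FM replicate 3, 568 genes passed among all tested. The count among all genes tested also moved without SBM replicate 2, so the member calls there are not read as particular to the 5 genes.

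SBM was then compared with FM. The 5 genes were again higher on average in SBM, though the libraries overlapped in each, where 11.1% of all genes tested had SBM wholly above FM. The gene si averaged 660 ± 387 CPM in SBM against 125 ± 91.6 CPM in FM, 5.28-fold (log2 fold change 2.40, SE 0.65, 95% interval 1.87-fold to 14.9-fold, adjusted p = 0.115 by edgeR). For mep1a.1 the means were 743 ± 549 CPM in SBM against 202 ± 98.4 CPM in FM, 3.68-fold (adjusted p = 0.187 by edgeR). The means of mep1a.2 were 366 ± 314 CPM in SBM and 72.3 ± 60.1 CPM in FM, 5.07-fold, and those of mep1bb were 444 ± 378 CPM in SBM against 82.6 ± 49.6 CPM in FM, 5.38-fold (adjusted p = 0.314 and 0.228 by edgeR). The means of dpp4 were 1309.9 ± 416 CPM in SBM against 857 ± 76.6 CPM in FM, 1.53-fold (adjusted p = 0.203 by edgeR).

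None of the 5 passed in SBM against FM with edgeR, where 0.592% of all genes tested passed. An unadjusted p under 0.05 was seen in 4 of the 5, all but mep1a.2, against 10.9% of all genes higher in SBM. With the replicate number as a block no member passed either, while the genes called among all tested numbered 295 against 105 without the block. DESeq2 called si and mep1a.1, and 1637 genes among all tested. With edgeR mep1a.1 alone passed without SBM replicate 2 (adjusted p = 0.0368, with a range of 0.0267 to 0.376 for this gene over all alternatives), while 0 of 5 passed without FM replicate 3. Leaving out either library also moved the count among all genes tested.

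Drug was also compared with SBM, and none of the 5 genes differed there beyond the spread between libraries. The log2 fold changes were 0.32 for si (95% interval 0.464-fold to 3.35-fold), 0.65 for mep1a.1 (0.538-fold to 4.55-fold), 0.86 for mep1a.2 (0.286-fold to 11.5-fold), 0.60 for mep1bb (0.325-fold to 7.08-fold) and 0.06 for dpp4 (0.711-fold to 1.52-fold). Adjusted p lay between 0.720 and 0.945 by edgeR. None of the 5 passed with edgeR or DESeq2, where edgeR passed 0.0395% of all genes tested, and 0 of 5 had an unadjusted p under 0.05, against 5.15% of all genes higher in Drug. In 0 of 5 did Drug lie wholly above SBM, against 9.2% of all genes. The intervals leave room for differences of several fold in the meprin genes. Without SBM replicate 2 the log2 fold changes were -0.087 for si, 0.18 for mep1a.1, 0.32 for mep1a.2, 0.068 for mep1bb and -0.17 for dpp4, each lower than with that library and negative for si and dpp4. Without SBM replicate 1 they were higher, at 0.56 for si, 1.25 for mep1a.1, 1.53 for mep1a.2, 1.30 for mep1bb and 0.26 for dpp4. With the replicate number as a block they were 0.58 for si, 1.07 for mep1a.1, 1.92 for mep1a.2, 1.30 for mep1bb and 0.091 for dpp4, and no member passed, while the genes called among all tested numbered 1 against 7 without the block. Without Drug replicate 3 that of dpp4 was -0.11. The 3 comparisons share libraries in pairs, so their fold changes are not independent of each other.

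**Figure D3:**
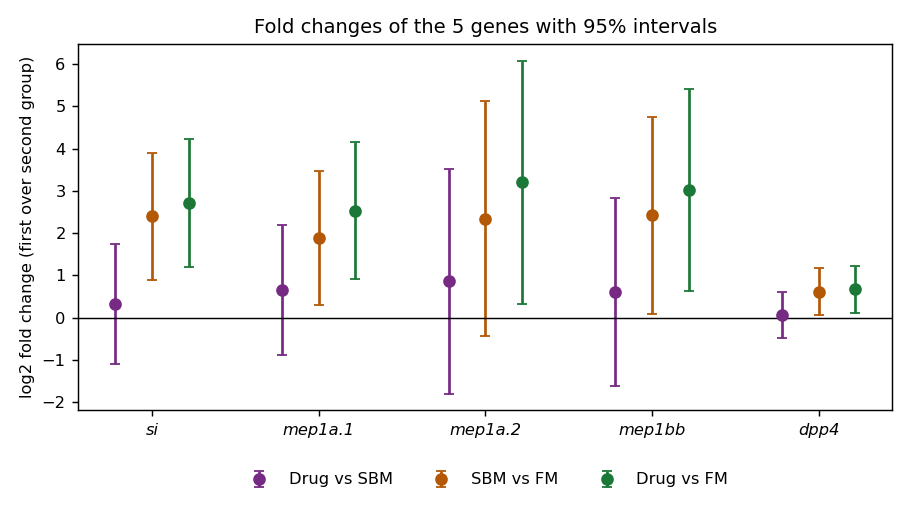
Log2 fold change of each of the 5 genes in Drug vs SBM, SBM vs FM and Drug vs FM, as points with 95% intervals from the edgeR fit over 9 libraries. Intervals of Drug vs SBM cross 0 for all 5 genes, those of SBM vs FM lie above 0 for all but mep1a.2, and those of Drug vs FM lie above 0 for all 5, with dpp4 close to 0 throughout.

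The spread inside the SBM group was wide for the meprin genes. On the CPM + 1 scale, the highest SBM library was 29.5-fold above the lowest for mep1a.2, 21.9-fold for mep1bb, 8.02-fold for mep1a.1, 4.25-fold for si and 1.94-fold for dpp4. The median of this ratio over the 11874 tested genes with a mean of at least 5 CPM was 1.43. Only 0.194% of those genes had a wider ratio than mep1a.2, 0.303% a wider one than mep1bb, and 21.0% a wider one than dpp4. In Drug the ratio was 1.14 for mep1a.1 and 1.88 for mep1bb, the narrowest and the widest of the 5, against a median of 1.27. In FM it was 10.7 for mep1a.2 and 1.18 for dpp4, against a median of 1.31. Replicate 2 was the lowest library of its group for all 5 genes in both SBM and FM. Within SBM, 41.3% of the 11874 genes were lowest in replicate 2, and the share within FM was not computed. The trait was not particular to the 5: within SBM, 11 of 13 other tested brush border hydrolases were lowest in replicate 2. So were 8 of 9 tested genes of proximal fat-absorbing enterocytes, but 0 of 10 of lysosome-rich enterocytes. For all 5 genes SBM replicate 2 lay within the FM range in CPM, as did 35.3% of the 11874 genes.

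The likeness of 2 genes was measured as the mean absolute difference of their log2(CPM + 1) profiles over the 9 libraries, each centred on its own mean, so that 0 is identical. The closest pair of the 5 was mep1a.2 and mep1bb, at 0.314, where mep1bb was number 5 of 11873 genes by closeness to mep1a.2. The gene si was closest to mep1a.1, at 0.374, and 0.523 from mep1bb. The copies mep1a.1 and mep1a.2 were 0.695 apart, and 1.78% of genes were closer to mep1a.1 than its copy was. In contrast dpp4 was 0.944 to 1.57 from the other 4, and 96.0% to 99.1% of genes were closer to dpp4 than they were. These values describe 9 libraries and carry no test.

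By the same measure the nearest named genes were listed for each of the 5. Those nearest to si were gcshb, a subunit of the glycine cleavage system (0.352), which rose in Drug against FM (adjusted p = 0.0133 by edgeR), and faxdc2, a fatty acid hydroxylase domain gene (0.356). The same faxdc2 was nearest to mep1a.1 (0.198), ahead of the choline kinase gene chkb (0.240) and the fatty acid receptor gene cd36 (0.259). The gut hormone gene pyya, which encodes peptide YY, was nearest to mep1a.2 (0.288), followed by the actin nucleator spire2 (0.311). It was at 119, 157 and 137 CPM in Drug, 81.9, 2.96 and 65.2 CPM in SBM, and 11, 0.633 and 13.5 CPM in FM, and did not pass in any comparison. Nearest to mep1bb were the sterol exporter abca1b (0.201), the neutral amino acid carrier slc6a19b (0.230) and the sphingolipid enzyme gene degs2 (0.249). Among the genes close to dpp4 were hephl1b, a hephaestin-like ferroxidase gene (0.108), and ctage5, which serves export from the endoplasmic reticulum (0.109).

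A wider list of 34 brush border hydrolase symbols was matched to the table, and 15 were present and 13 tested. None of the 13 passed in any comparison with edgeR. In 7 of the 13 Drug lay wholly above FM, against 16.6% of all genes tested. In 1 of the 13 Drug lay wholly below FM, and the share of all genes in that direction was not computed. DESeq2 called 3 higher and 1 lower in Drug against FM, where it called 2455 genes among all tested. Their median log2 fold change in Drug against FM was 0.71, with 10 of 13 positive, beside 2.72 for the 5 genes and -0.04 for all genes tested. In SBM against FM it was 0.72, beside 2.34 for the 5 genes and 0.01 for all genes. In Drug against SBM it was -0.01, beside 0.60 for the 5 genes and -0.01 for all genes.

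Within the list, the neutral ceramidase gene asah2 was lowest in SBM replicate 2 and FM replicate 2 within those groups, as si and the meprins were, at 321, 327 and 421 CPM in Drug, 706, 23.3 and 333 CPM in SBM, and 90.3, 8.83 and 114 CPM in FM. The trehalase gene treh averaged 99.1 ± 18.4 CPM in Drug, with 102 ± 15.4 CPM in SBM and 59.5 ± 6.86 CPM in FM, and did not pass (adjusted p = 0.0604 in Drug against FM and 0.0893 in SBM against FM by edgeR). Intestinal alkaline phosphatase alpi.2 was at 815 ± 97.6, 799 ± 301 and 553 ± 80.8 CPM in Drug, SBM and FM. The dipeptidase dpep1 had the highest mean level of the list per length, 969 FPKM, and was at 1421 ± 438 CPM in Drug, 2294 ± 944 CPM in SBM and 954 ± 157 CPM in FM. The gamma-glutamyltransferase gene ggt1b was lower in the Drug libraries than in the FM libraries without overlap, but did not pass (adjusted p = 0.0787 by edgeR), at 150 ± 27.9 CPM in Drug, 195 ± 61.1 CPM in SBM and 291 ± 79.9 CPM in FM. Enteropeptidase (tmprss15), which activates trypsinogen at the brush border, was at 9.32, 52.2 and 43.5 CPM in Drug, 9.35, 0.373 and 8.85 CPM in SBM, and 0.328, 0.0264 and 2.15 CPM in FM. Angiotensin-converting enzyme (ace) was at 31.1, 261 and 127 CPM in Drug, 111, 3.04 and 60.4 CPM in SBM, and 55.8, 5.75 and 108 CPM in FM, with wide overlap. The aminopeptidase xpnpep2 averaged 483 ± 112 CPM in Drug, 613 ± 211 CPM in SBM and 372 ± 47.2 CPM in FM, and the peptidase naaladl1 averaged 156 ± 54.6 CPM in Drug, 157 ± 41.1 CPM in SBM and 95.5 ± 15.1 CPM in FM. The phospholipase plb1 was lower on average in Drug, at 244 ± 114 CPM against 597 ± 423 CPM in SBM and 652 ± 321 CPM in FM, without passing, and dpep2 stayed at 1.44 CPM or less in each library.

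**Figure D4:**
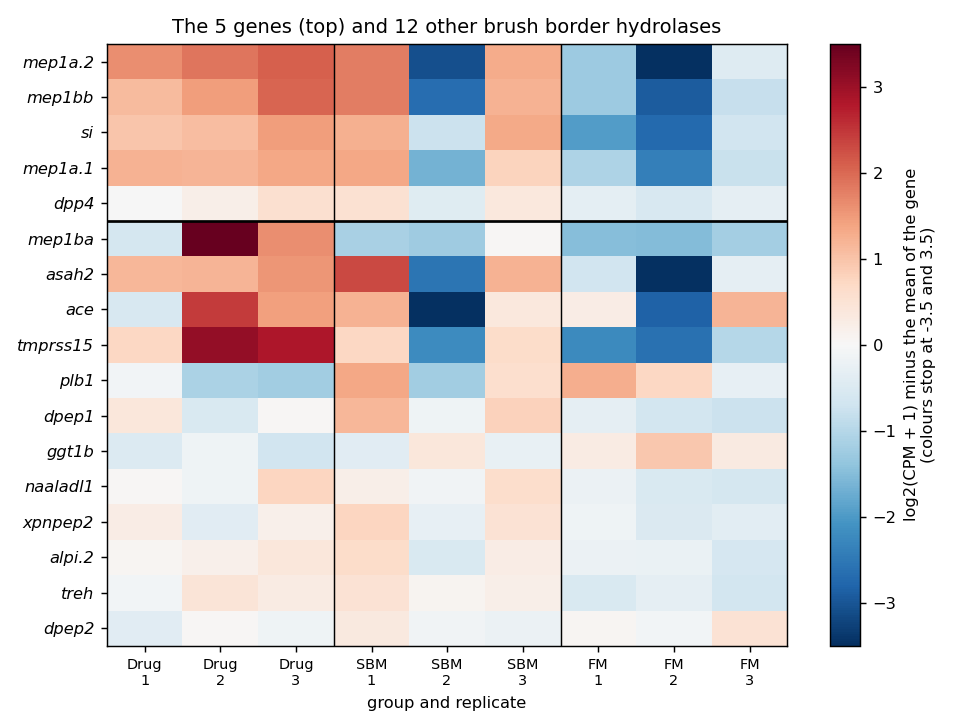
Log2(CPM + 1) minus the mean of each gene in the 9 libraries, for the 5 genes above the black line and 12 other brush border hydrolases below it, ordered by range within each block. Red marks libraries above the mean of a gene and blue those below, and asah2 and tmprss15 are blue in SBM replicate 2 and FM replicate 2 as mep1a.2 and mep1bb are.

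Genes that share a protein family or only a name with the 5, and are not brush border digestive enzymes, were looked at in the same way. Of 7 tested, none passed in any comparison, and the median log2 fold change was -0.11 in Drug against FM and 0.06 in SBM against FM. The cytosolic dipeptidyl peptidase gene dpp3 was at 163 ± 32.7 CPM in Drug, 133 ± 12.9 CPM in SBM and 94.5 ± 13.7 CPM in FM, and did not pass (adjusted p = 0.0537 in Drug against FM by edgeR). The acid alpha-glucosidase gene gaa2, of the glycoside hydrolase family of si, was at 55.3 ± 8.76 CPM in Drug, 58.7 ± 9.65 CPM in SBM and 48.5 ± 10.7 CPM in FM.

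The 5 genes were set beside the carriers and the microvilli of the same membrane. No apical transporter of 9 tested passed with edgeR in any comparison. DESeq2 called 2 higher and 2 lower in Drug against FM, where it called 2455 genes among all tested. The carrier slc6a19b was among the 3 genes nearest to mep1bb, at 645, 840 and 1059 CPM in Drug, 914, 51.9 and 443 CPM in SBM, and 127, 23.0 and 156 CPM in FM. The sodium-glucose carrier slc5a1, which takes up the glucose that sucrase-isomaltase releases, was at 245, 379 and 349 CPM in Drug, 327, 261 and 280 CPM in SBM, and 228, 266 and 141 CPM in FM, and FM replicate 2 was its highest FM library where it was the lowest for si. Of 20 tested microvillus genes, 1 rose in Drug against FM: eps8l3a, an actin regulator, at 195 ± 24.5 CPM in Drug and 62.8 ± 20.5 CPM in FM (log2 fold change 1.64, adjusted p = 0.0149 by edgeR). With edgeR 4.38% of all genes tested passed in this comparison. The count of microvillus genes was 0 without Drug replicate 3 and without FM replicate 2, 2 without SBM replicate 1 and 3 with DESeq2. The ezrin gene ezra, which links microvillus actin to the membrane, did not pass in any comparison, at 1828 ± 253 CPM in Drug, 2097 ± 472 CPM in SBM and 1472 ± 170 CPM in FM.

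Markers of gut regions were summed per library beside the 5 genes. The list of proximal fat-absorbing enterocytes had 10 of 27 symbols in the table. It summed to 7410 to 9486 CPM in Drug, 1461 to 10600.0 CPM in SBM and 1166 to 2984.5 CPM in FM. The top FM sum was that of replicate 3, the library with liver transcripts, and FM replicates 1 and 2 summed to 1441 and 1166 CPM. The top SBM sum was that of replicate 1, where plin2 alone was at 5705 CPM. In SBM replicates 2 and 3 plin2 was at 178 and 350 CPM. Of the 9 tested genes of the list 3 rose in Drug against FM and none fell. They were the intestinal fatty acid binding protein fabp2, at 5986 ± 778 CPM in Drug and 653 ± 225 CPM in FM, the monoacylglycerol acyltransferase mogat2, at 115 ± 26.0 CPM in Drug and 23.2 ± 6.85 CPM in FM, and tm4sf5, at 254 ± 71.4 CPM in Drug and 22.7 ± 13.7 CPM in FM (adjusted p = 0.0183, 0.0406 and 0.0373 by edgeR). This count ran from 0 to 5 when 1 library was left out. With no library left out, 4.38% of all genes tested passed in Drug against FM. Of the defining proximal markers fixed for this work, fabp2 and slc5a1 were in the table, and fabp1b.1, apoa1a, apoa4a, apobb and slc15a1b were not analysed here. The lipoprotein gene apobb.1 was at 1294.5 CPM in FM replicate 3, the library with liver transcripts. The other FM libraries had 3.37 and 0.0527 CPM. Its Drug libraries ranged from 131 to 946 CPM, wholly above the SBM range of 1.52 to 65.3 CPM. Drug lay wholly above SBM in 3 of the 9 tested genes of the list and in 9.2% of all genes tested. The Drug libraries of apobb.1 also lay above FM replicates 1 and 2, but below FM replicate 3. Replicate 2 was its lowest library within SBM and within FM, and apobb.1 did not pass in any comparison.

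The list of lysosome-rich enterocytes had 10 of 13 symbols in the table. It summed to 6460 to 7928 CPM in Drug, 6371 to 17691 CPM in SBM and 11586 to 14114 CPM in FM, and SBM replicate 2, low in the 5 hydrolases, was its highest library. Of 10 tested genes the endocytic receptor lrp2b fell in Drug against FM, at 941 ± 181 CPM in Drug and 2323 ± 477 CPM in FM, and the cathepsin gene ctsd rose, at 348 ± 21.6 CPM in Drug and 187 ± 12.5 CPM in FM (adjusted p = 0.0186 and 0.0300 by edgeR). In SBM against FM ctsd rose too, at 401 ± 82.5 CPM in SBM (adjusted p = 0.0397 by edgeR), where 0.592% of all genes tested passed. No gene of the list passed in SBM against FM without Drug replicate 1. One of its defining genes, cubn, the cubilin receptor for protein uptake, was at 918, 1109 and 904 CPM in Drug, 895, 3496 and 1852 CPM in SBM, and 2787, 3454 and 2487.5 CPM in FM, and did not pass in any comparison. Leaving out 1 library gave 0 to 1 rising and 0 to 3 falling genes of this list in Drug against FM. With no library left out, 4.38% of all genes tested passed there. The ileal bile acid carrier slc10a2 was at 567 ± 296 CPM in Drug, 703 ± 206 CPM in SBM and 1097 ± 475 CPM in FM and did not pass. The labels give no gut segment, and the part of segment or of enterocyte makeup in the levels of the 5 hydrolases was not tested.

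Transcription factors of the intestine were also tested. Of 16, cdx1a, a caudal-type factor of the intestine, fell in Drug against FM, at 210 ± 45.8 CPM in Drug and 473 ± 96.8 CPM in FM (log2 fold change -1.17, adjusted p = 0.0266 by edgeR). When 1 library was left out, 0 to 2 genes of this list fell and 0 to 1 rose, with none falling in 6 of the 9 such fits. With no library left out, 4.38% of all genes tested passed in Drug against FM. The enterocyte factor hnf4a was at 205 ± 32.97 CPM in Drug, 172.5 ± 46.4 CPM in SBM and 243 ± 47.2 CPM in FM. The factor gata5, named after its values were seen, was lowest in replicate 2 of SBM and of FM, as the 5 hydrolases were, at 118, 77.9 and 126 CPM in Drug, 127, 6.17 and 27.8 CPM in SBM, and 9.66, 4.51 and 11.9 CPM in FM (adjusted p = 0.0844 in Drug against FM by edgeR).

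**Figure D5:**
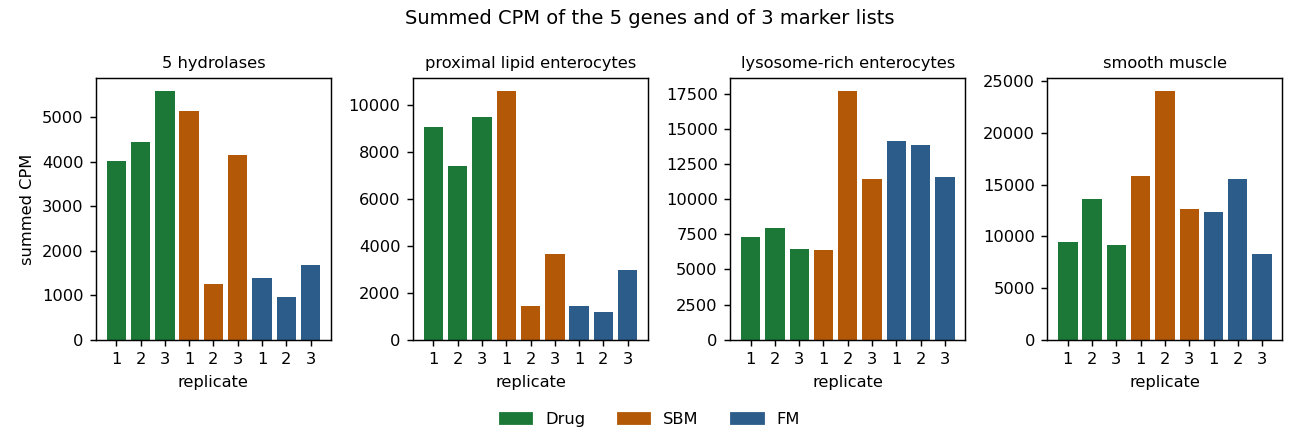
Summed CPM of the 5 hydrolases, of 10 proximal fat-absorbing enterocyte genes, of 10 lysosome-rich enterocyte genes and of 11 smooth muscle genes in each library, each panel on its own axis from 0. The 5 hydrolases are lowest in SBM replicate 2 and the FM libraries, where the lysosome-rich list is at 11586 CPM or more, while SBM replicate 3 is high in both. In the fat-absorbing panel, the bar of FM replicate 3, the library with liver transcripts, includes 1294.5 CPM of apobb.1.

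Markers of other cells of the gut wall also varied between libraries. The smooth muscle list, with 11 of 12 symbols in the table, summed to 9161 to 13579 CPM in Drug, 12684 to 24057 CPM in SBM and 8313 to 15526 CPM in FM, with its highest value in SBM replicate 2. The leukocyte list (11 of 15) summed to 862 to 1131 CPM in Drug, 996 to 1111 CPM in SBM and 940 to 1244 CPM in FM. The exocrine pancreas list (6 of 27) summed to 510 to 2349 CPM in Drug, 619 to 3146 CPM in SBM and 215 to 2298 CPM in FM, with the top FM value in FM replicate 3. Within FM that library was also the highest in CPM for each of the 5 hydrolases. The goblet list (4 of 8) summed to 194 to 247 CPM in Drug, 163 to 191 CPM in SBM and 141 to 169 CPM in FM. Of its 4 tested genes the secretory chaperone agr2 rose in Drug against FM (148 ± 27.96 CPM in Drug, 74.2 ± 12.5 CPM in FM, adjusted p = 0.0292 by edgeR), and the list's median log2 fold change was 0.049, with 2 of 4 positive. Both negative ones, fer1l6 at -0.575 and gfi1aa at -0.39, lay wholly below FM in Drug but did not pass. The epithelial list (6 of 9) summed to 2319.5 to 2804 CPM in Drug, 3314 to 3978 CPM in SBM and 2417 to 3302 CPM in FM, and its highest library, SBM replicate 2, was among the lowest for the 5 hydrolases. Of that top sum krt8 alone made up 2276 CPM, and 3 of the 6 genes were lowest within SBM in replicate 2. The tight junction gene cldn15a of this list rose in SBM and in Drug against FM (adjusted p = 0.0298 in SBM and 0.0186 in Drug by edgeR). The other 5 genes of this list did not pass, and in Drug against FM 3 of 6 were positive and the keratin gene krt8 was at -0.47 on the log2 scale. Proliferation genes (14 of 14) summed to 330 to 515 CPM in Drug, 196 to 272 CPM in SBM and 99.5 to 144 CPM in FM, and 6 of them (mki67 and mcm2 to mcm6) rose in Drug against FM (0 to 13 when 1 library was left out). Among all genes tested, 4.38% passed in Drug against FM with no library left out. No marker of these lists was at 0 in every library, and the part of these cells in the levels of the 5 hydrolases was not tested.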

How the data were processed

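Intestinal RNA of 9 libraries was sequenced. Per the labels' protocols, TRIzol was used for the RNA and the VAHTS Universal V6 kit for the libraries, and strand is not stated. Tools in the submitters' processing notes are HISAT2, HTSeq, fastp, DESeq2 and R 3.2.0, with no roles. The notes also name mm10, a mouse build, although the symbols are those of fish. Which genome the reads were aligned to was not given in the sources used here. The deposited counts are whole read counts per gene, not normalized, and the 9 single-library files held the same values as the series table. The deposited FPKM values were made by the authors from those counts: the length implied by count, total and FPKM was the same in every library for 15780 of 15780 genes with at least 10 counts in each (relative tolerance 1e-06).

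Counts were fitted with edgeR 4.0.16 in R 4.3.3 (filterByExpr defaults, TMM factors, robust quasi-likelihood fit) over 9 libraries in 3 groups. There was no covariate, and the residual degrees of freedom were 6. Two-sided p-values were adjusted by Benjamini-Hochberg over the 17731 genes tested and a threshold of 0.05. SE was taken as the size of the log2 fold change divided by the root of F, and 95% intervals use the test's own degrees of freedom. limma 3.58.1 and DESeq2 1.42.0 were alternatives. The fit was checked on simulated counts. The members and lists were chosen with earlier results of these data known, so counts over lists are descriptions. Lists were matched by symbol. Named genes are the 5 members, list genes past the threshold, all tested genes of the wider hydrolase list, up to 4 of the most abundant genes of each other gut list, up to 2 for lists of other cells, and the 3 named genes nearest to each member. Genes named outside it, chosen after their values were seen, are gata5, gfi1aa, cubn and apobb.1; 1 gene that this rule names is not reported here. No sequences were used here, and the promoter description planned was not run.

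No 2 libraries of a group were near copies (smallest chi-square per degree of freedom 56.1). Replicate numbers come from the sample titles. Same-numbered libraries deviated together in Drug and SBM (correlations of 0.130 to 0.430) and in SBM and FM (0.174 to 0.349), over the bound of 0.1 in all 3 pairs, but in 1 of 3 pairs for Drug and FM (0.0567 to 0.106).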

Additional observations from a re-analysis of the deposited data

How the results depend on the processing

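With 3 libraries a group and this spread, edgeR called none of the 5 genes in any comparison, and the count moved with the setting. In Drug against FM it was 4 with DESeq2, 4 in a fit of Drug and FM alone and 4 with SBM replicate 2 and FM replicate 3 both left out. It was 1 (si) with the stricter filter (mean of at least 10 CPM), with liver-restricted genes removed and by limma with a pseudocount of 1 or 0.1 FPKM, and 0 to 4 when 1 library was left out. In SBM against FM it was 2 with DESeq2, 3 with SBM replicate 2 and FM replicate 3 both left out, and 0 to 1 when 1 library was left out. In Drug against SBM it was 0 in all alternatives. The size factors (RLE) and no filter on low counts left 0 in each comparison. Counts among all genes tested moved with many settings too, as given below, so these member counts are descriptions. All 5 log2 fold changes stayed positive in Drug against FM and in SBM against FM under every alternative run. In Drug against SBM, the values with both of these libraries left out were -0.18 for dpp4 and -0.10 for si, and with 1 library left out they ranged from -0.17 to 0.26 for dpp4 and from -0.087 to 0.63 for si.

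Genes called among all tested numbered 777 in Drug against FM, 105 in SBM against FM and 7 in Drug against SBM. In the same order they were 2455, 1637 and 629 with DESeq2, 1199, 330 and 0 with both libraries left out, 1578, 0 and 0 when only the 2 compared groups were fitted, and 429, 20 and 1 by limma with no filter on FPKM. The stricter filter gave 215 in SBM against FM and 2 in Drug against SBM, leaving out liver-restricted genes gave 169 in SBM against FM, and both filtered FPKM fits gave 0 in Drug against SBM. Leaving out 1 library gave 10 to 1711, 2 to 424 and 0 to 36, and each of the 9 libraries moved these counts by over 1.5 times, except FM replicate 3 in Drug against FM (568). Where 0 were called in Drug against SBM, 1580 to 2514 genes had an unadjusted p under 0.05, and 2769 had one in SBM against FM on the 2 groups alone. The cause of these shifts was not tested.

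With a replicate block the counts were 1293, 295 and 1 genes. In Drug against FM, where the libraries may share only a number, 2 of the 5 genes passed with the block (si and mep1a.1). Each library deviated most like the one of its own number in each of the other groups, a hint from the data and not from the design. The block changed no call of the 5 genes in SBM against FM or in Drug against SBM. At this depth the lowest count of any of the 5 genes in a library was 430.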
